A study of Mus musculus with 15 samples.

Results

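Matrix metalloproteinases (MMPs), ADAMTS proteases and their tissue inhibitors (TIMPs) were examined in the uteri of ovariectomized mice given 17β-estradiol (E2) or the weak estrogen estriol (E3). The members are the genes whose name on the array begins with Mmp, Adamts or Timp followed by a number. A gene was kept when a probe was well above background on at least 2 of the 3 arrays of any of the 5 groups, and the probe with the highest mean signal stood for it. This kept 38 of 42 genes (18 MMPs, 16 ADAMTSs, and 4 TIMPs), among 23238 gene names (34776 probes) that passed the same filter on the whole array. *Mmp1a*, *Mmp20*, *Mmp21*, and *Adamts13* did not pass and were not tested. *Adamts20* passed only through the 24 hr groups in which it read highest.

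The mice were ovariectomized at 10 weeks of age or older, rested for 10 to 14 days, and injected intraperitoneally with 100 μL of saline vehicle or with 250 ng of E2 or E3. Estriol is estradiol with an added 16α-hydroxyl group. The 5 groups of 3 one-color arrays were saline at 24 hr, E2 at 2 hr, E3 at 2 hr, E2 at 24 hr, and E3 at 24 hr. The descriptions give the strain as C57bl6/J for the saline, E3, and 24-hr E2 mice, and as C57bl6/Jx129 with a WT *Esr1* genotype for the 2-hr E2 mice. No saline group at 2 hr was analysed here, so the 24-hr saline arrays are the vehicle at both times, and the 4 comparisons with saline share them. The methods describe RNA from pooled tissue, and the sample descriptions a single uterus per RNA, so the p-values measure the spread between arrays, which may be partly technical.

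The 3 arrays of E2 at 2 hr were on other slides, read on another scanner on another day, and came from the other strain. For them these factors and the treatment cannot be told apart. The 24-hr E2 arrays and the 24-hr E3 arrays were also on slides that held no other group. Slide and treatment cannot be told apart there either. All 5 transcripts that mark the uterus were well above background in every group, although their summed signal was 33.2 to 38 with saline, 26.4 to 28.8 and 14.6 to 17.8 at 2 hr of E2 and E3, and 22.2 to 30.4 and 29.8 to 33 at 24 hr. Transcripts of other tissues were uneven between arrays. Summed over 9 liver genes, the signal was 6.18 to 22.9 times the array's 75th percentile on the saline arrays and 0.275 to 0.319 times on the 2-hr E2 arrays, and summed over 7 genes of the exocrine pancreas it reached 544 on 1 E3 array at 2 hr and 258 on 1 E2 array at 24 hr, against a lowest value of 0.267. The sum of 3 mesothelial genes was 16.1 to 16.6 on the 2-hr E2 arrays, with 1 of the 3 called higher. It was 6.96 to 9.69 on the saline arrays and 5.65 to 10.5 in the other groups. In whole uterus, fewer cells of a type and less RNA per cell cannot be told apart.

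MMPs are zinc endopeptidases that are secreted or held at the membrane as inactive zymogens, and once activated they cleave collagens, gelatins, proteoglycans, and other matrix proteins. ADAMTS proteases are secreted relatives with thrombospondin repeats. Some cleave the large proteoglycans versican and aggrecan, some remove the amino propeptides of fibrillar procollagens, and some act at fibrillin microfibrils. TIMPs bind the active site of MMPs, and TIMP3, which is held in the matrix, also inhibits several ADAMTS proteases. In the uterus these enzymes are known for matrix remodeling in the cycle, at implantation, and after birth.

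The start regions of 8 genes are shown because they carry both layouts found among the members, GC-rich starts (53.3 to 80% G and C outside chromosome 9) and starts of lower GC content (37.7 to 52% on chromosome 9), most of which have a TATA box. AP-1 and Sp1 sites are known routes by which the estrogen receptor acts on genes without binding DNA itself, so their motifs were searched. The table of RefSeq promoters (build GRCm38.p6) held a 300-base window, 250 bases before to 50 after the start, for 24 of the 38 members (27 promoters). The last 120 bases before the start are printed 5′ to 3′. Capitals mark matches to the AP-1 motif TGANTCA, the GC box GGGCGG, or the TATA box TATAAA on either strand. The first 4 genes have the GC-rich layout.
Adamts1: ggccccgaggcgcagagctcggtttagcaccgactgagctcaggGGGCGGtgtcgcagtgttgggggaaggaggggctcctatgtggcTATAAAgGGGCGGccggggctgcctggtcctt
Mmp11: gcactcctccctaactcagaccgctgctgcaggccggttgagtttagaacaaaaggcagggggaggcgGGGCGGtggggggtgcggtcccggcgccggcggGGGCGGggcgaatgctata
Timp1: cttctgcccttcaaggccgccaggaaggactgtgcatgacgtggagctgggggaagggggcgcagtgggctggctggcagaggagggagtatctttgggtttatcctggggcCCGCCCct
Timp3: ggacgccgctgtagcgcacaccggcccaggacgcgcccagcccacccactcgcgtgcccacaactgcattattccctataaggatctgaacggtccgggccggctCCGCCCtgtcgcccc
The other 4 are from the MMP cluster on chromosome 9.
Mmp3: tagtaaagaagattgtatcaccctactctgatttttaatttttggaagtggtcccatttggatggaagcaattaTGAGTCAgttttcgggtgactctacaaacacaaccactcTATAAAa
Mmp7: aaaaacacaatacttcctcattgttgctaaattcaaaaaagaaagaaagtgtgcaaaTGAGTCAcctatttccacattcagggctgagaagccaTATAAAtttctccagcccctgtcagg
Mmp10: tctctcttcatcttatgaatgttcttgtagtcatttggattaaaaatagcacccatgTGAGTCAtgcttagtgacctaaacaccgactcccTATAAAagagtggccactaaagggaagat
Mmp13: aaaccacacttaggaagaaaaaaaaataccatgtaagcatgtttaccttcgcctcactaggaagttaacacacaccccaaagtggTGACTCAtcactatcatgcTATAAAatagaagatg

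The printed bases lie at chr16:85803114-85803233 (minus strand) for *Adamts1*, chr10:75932503-75932622 (minus strand) for *Mmp11*, chrX:20870046-20870165 (plus strand) for *Timp1*, and chr10:86300292-86300411 (plus strand) for *Timp3*. Those of the cluster lie at chr9:7445702-7445821 (plus strand), chr9:7691970-7692089 (plus strand), chr9:7502222-7502341 (plus strand), and chr9:7272394-7272513 (plus strand), in the order shown. The cluster holds *Mmp13*, *Mmp12*, *Mmp3*, *Mmp10*, *Mmp8*, and *Mmp7* among the members, and of their 8 promoters 5 held an AP-1 match, 6 a TATA box, and 0 a GC box. Of the 19 member promoters elsewhere, 0 held an AP-1 match, 1 a TATA box (*Adamts1*), and 16 a GC box. Among all 32851 promoters of the table, 7.81% held the AP-1 motif, 13.6% the TATA box, and 35.7% the GC box. The full estrogen response element GGTCANNNTGACC was in 0 of the 27 windows (0.07% of all), the cAMP response element TGACGTCA in 0 (1.79%), and the half-site GGTCA, which is part of the full element, in 6 (40.5%). A match is a description of these letters only.

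Transcripts were compared with limma over all 15 arrays. Values are log2 of the processed signal minus log2 of the array's 75th percentile (normalized log2 signal), changes are differences of group means on that scale, and calls needed both a p-value under 0.001 and a size of 2-fold or more. Adjusted p-values are limma's, by Benjamini-Hochberg over all tested probes. At 2 hr, 6 of the 38 members increased and 6 decreased after E2, against 10.6% and 10.7% of all tested probes. After E3, 8 increased and 6 decreased (4.68% and 9.11% of all probes). At 24 hr, E2 increased 5 and decreased 6 (6.93% and 11.1%), whereas E3 increased 4 and decreased 0 (1.85% and 1.96%). Of all probes called at 24 hr, 38.4% were higher after E2, but 54.4% with normexp background correction. For E3 the share was 48.5%, and 89.3% with normexp, 58.8% with quantile normalization, and 38.4% without scaling.

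**Figure D1:**
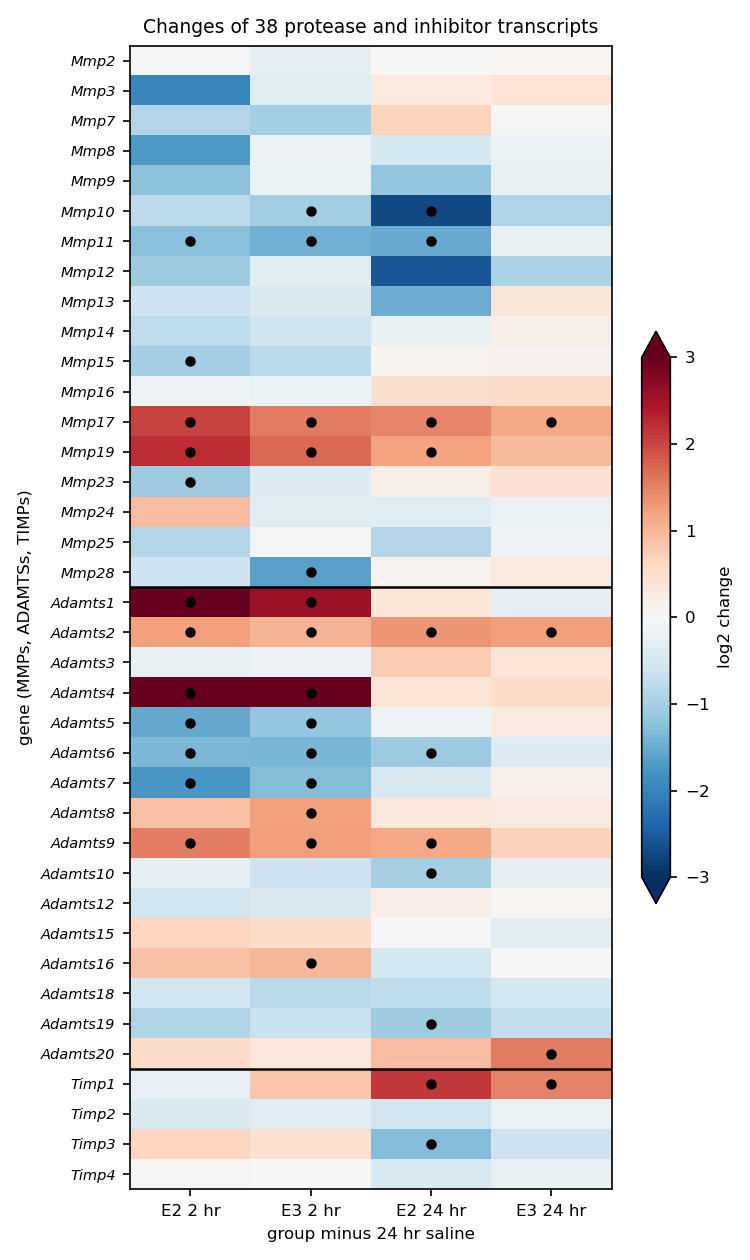
Log2 change of each of the 38 members (rows, grouped as MMPs, ADAMTSs, and TIMPs) in the 4 treated groups against 24-hr saline (columns), red for higher and blue for lower, with the color scale ending at 3 in both directions. Black dots mark called changes, and the 24-hr E3 column holds 4 of them, all higher.

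The median change over the members was -0.50 (log2) for E2 at 2 hr, -0.30 for E3 at 2 hr, -0.07 for E2 at 24 hr, and 0.07 for E3 at 24 hr, where the medians over all tested probes were -0.08, -0.11, -0.06, and -0.01. In all, 21 members were called in at least 1 of the 4 comparisons with saline, against 36.5% of all tested probes. The summed signal of 6 epithelial genes was 71.1 to 97.1 on the saline arrays, 149 to 159 at 24 hr of E2, and 116 to 125 at 24 hr of E3, that of 5 endothelial genes was 11.5 to 12.6, 6.61 to 6.71, and 9.06 to 11.1, and that of 5 mast cell genes 1.72 to 2.46, 1.02 to 1.13, and 2.07 to 2.64. Smooth muscle genes (6) summed to 257 to 296, 353 to 383, and 361 to 445, skeletal muscle genes (6) to 3.44 to 3.77, 8.12 to 11, and 5.37 to 8.2, and fat genes (6) to 18.3 to 94.5, 13 to 20.2, and 13.5 to 69.7. At 2 hr of E2 and E3 the epithelial sums were 48.6 to 65 and 53.3 to 69.4, below all saline arrays. The sums of 6 stromal genes were 143 to 183 with saline, 151 to 167 and 123 to 134 at 2 hr, and 174 to 187 and 200 to 218 at 24 hr. The part of these cells in the changes of the members was not tested.

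The largest increases at 2 hr among the members were of *Adamts4* and *Adamts1*, proteases that cleave versican and aggrecan, and both were near the saline level at 24 hr. *Adamts4* read -1.77, -2.30, and -2.81 on the saline arrays, 3.02, 3.27, and 2.96 after 2 hr of E2, and 2.77, 2.53, and 2.58 after 2 hr of E3. At 24 hr it read -2.15, -1.90, and -1.68 after E2 and -1.49, -1.81, and -1.89 after E3. The 2-hr arrays all lay far above the saline arrays, with no overlap. This was an increase of 5.38 ± 0.221 (SE) for E2 (41.6-fold, adjusted p = 5.85e-09) and 4.92 ± 0.221 (SE) for E3 (30.3-fold, adjusted p = 1.9e-08). At 24 hr the differences from saline were 0.39 and 0.56, and neither was called.

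*Adamts1* read 1.62, 1.43, and 1.54 on the saline arrays, 5.16, 4.49, and 4.11 at 2 hr of E2, and 4.15, 4.11, and 4.09 at 2 hr of E3. At 24 hr its values were 1.67, 2.10, and 1.90 after E2 and 1.31, 1.42, and 1.09 after E3. Every 2-hr array was above every other array. The 2-hr increases were 3.05 ± 0.208 (SE, adjusted p = 1.66e-07) for E2 and 2.58 ± 0.208 (SE, adjusted p = 1.18e-06) for E3, and a further probe of the gene gave 2.45 and 2.92. *Adamts1* is needed for ovulation and normal uterine structure in mice, and its start region, printed above, has a TATA box beside a GC box.

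*Adamts5*, the next gene to *Adamts1* among the members on chromosome 16, moved the other way. It encodes the main aggrecan-cleaving enzyme of mouse cartilage and read 1.03, 0.93, and 1.07 with saline, -0.21, -0.72, and -0.66 at 2 hr of E2, and -0.04, -0.13, and -0.26 at 2 hr of E3. Its 24-hr values of 0.71, 0.94, and 0.91 for E2 and 1.47, 1.36, and 1.04 for E3 overlapped the saline values. The 2-hr changes were -1.54 ± 0.143 (SE, adjusted p = 1.9e-06) and -1.15 ± 0.143 (SE, adjusted p = 3.41e-05), and the further probe of the gene gave -1.56 and -1.39.

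**Figure D2:**
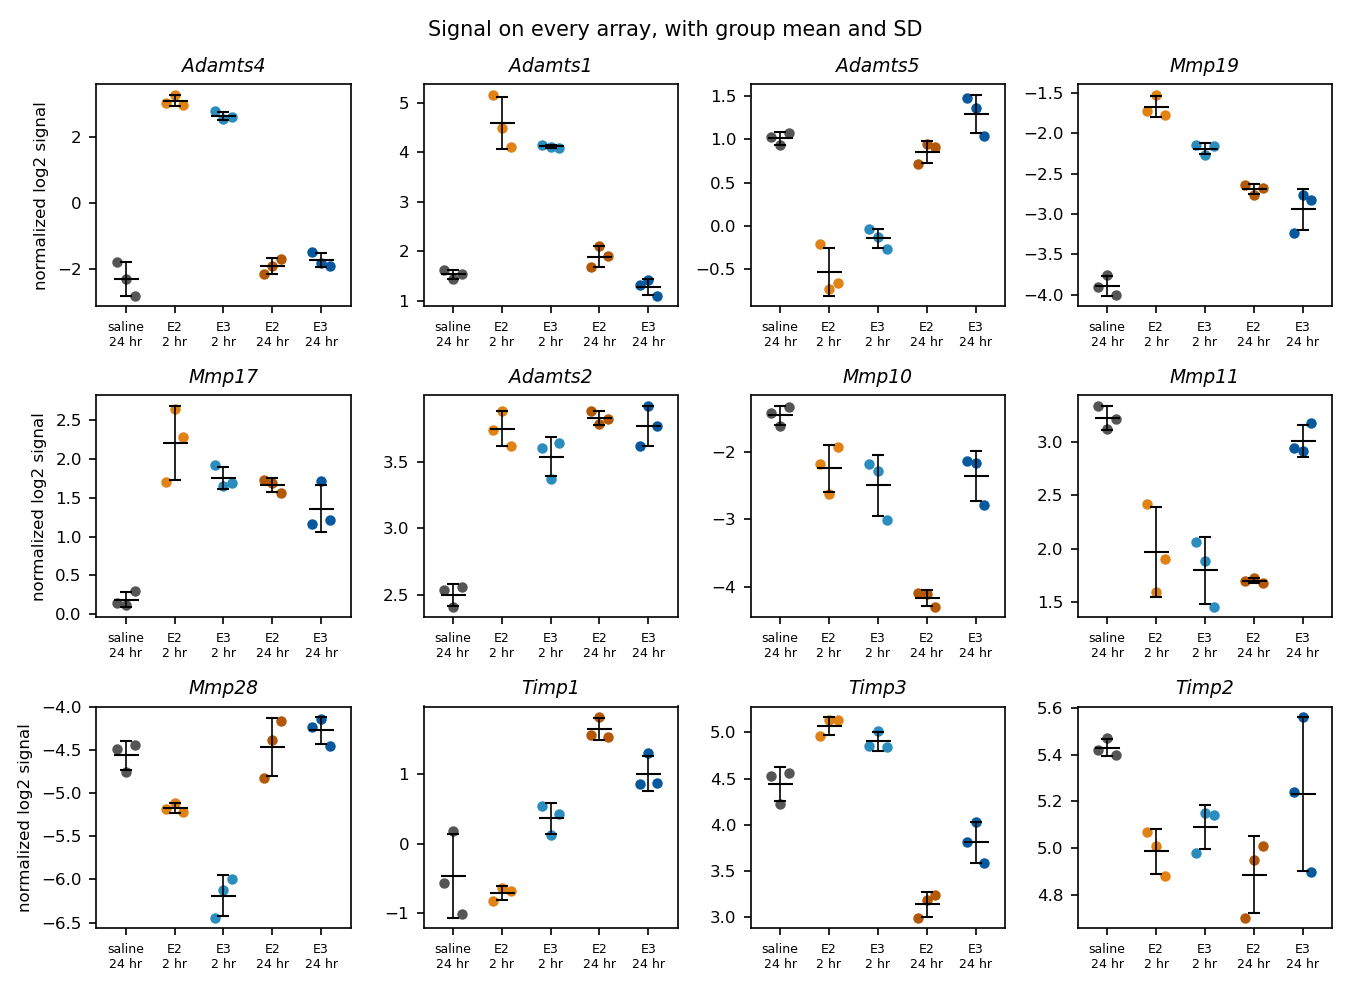
Normalized log2 signal of 12 members on each array (dots) in the 5 groups, with the group mean (horizontal line) and SD (bars, n = 3), each panel on its own scale. *Adamts4* and *Adamts1* are highest in the 2-hr groups, *Adamts5* is low there, and *Mmp10* and *Mmp11* separate E2 from E3 at 24 hr.

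Of the 7 members that act on large aggregating proteoglycans (*Adamts1*, *4*, *5*, *8*, *9*, *15*, and *20*), 3 increased and 1 decreased at 2 hr of E2, and 4 increased and 1 decreased at 2 hr of E3, where all probes gave 10.6% and 10.7% for E2 and 4.68% and 9.11% for E3. *Adamts9* increased at both times after E2. It read -0.93, -0.67, and -0.97 with saline, 0.43, 0.93, and 0.68 at 2 hr of E2, 0.49, 0.53, and 0.16 at 2 hr of E3, 0.05, 0.55, and 0.32 at 24 hr of E2, and -0.29, -0.14, and -0.09 at 24 hr of E3. The changes were 1.53 ± 0.159 (SE, adjusted p = 4.77e-06), 1.25 ± 0.159 (SE, adjusted p = 4.24e-05), 1.16 ± 0.159 (SE, adjusted p = 5.52e-05), and 0.68 ± 0.159 (SE, adjusted p = 0.00667) in that order, and the last was not called. At 24 hr of E2 its 2 further probes gave 0.83 and 0.84. *Adamts8* increased by 1.24 ± 0.228 (SE, adjusted p = 0.000697) after E3 at 2 hr, a call lost without saline array 2 (1.08), and its 2 further probes differed in sign (-0.62, not called, and 1.25, called). After E2 its difference at 2 hr was 0.91 and was not called, while the further probes were called in opposite directions (-1.76 and 1.52). The further probe that was lower at 2 hr was dim. Its mean normalized log2 signal was -8.44, against -0.95 for the other further probe and 0.98 for the brightest. The 2 brighter probes were higher than saline at 2 hr of both compounds.

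*Adamts20* was dim. It was not well above background on any array of saline or of E3 at 2 hr, and its 24-hr E3 signal was at least 2.03-fold higher than saline. Since it passed the filter only through the 24-hr groups, its calls are a description, and without it 3 members increased at 24 hr of E3. *Adamts16*, whose substrates are less well known, was at the limit of the call at 2 hr of E3 with 1 ± 0.223 (SE, adjusted p = 0.00256), and leaving out any of 10 of the 15 arrays ended the call (0.78 to 1.15 over all 15), and it held only when the array left out was E2 2-hr array 1, E2 2-hr array 2, E3 2-hr array 3, E3 24-hr array 1, or E3 24-hr array 3. At 2 hr of E2 its difference was 0.87.

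Other ADAMTS transcripts decreased at 2 hr. *Adamts7*, whose product cleaves cartilage oligomeric matrix protein (COMP), read -0.57, -0.63, and -0.75 with saline, -2.36, -2.40, and -2.45 at 2 hr of E2, and -1.83, -1.90, and -2.15 at 2 hr of E3. At 24 hr it read -1.10, -1.05, and -1.19 after E2 and -0.43, -0.60, and -0.44 after E3. The 2-hr arrays were all lower than the saline arrays, with the E2 arrays lowest. The changes were -1.75 ± 0.093 (SE, adjusted p = 2.85e-08) and -1.31 ± 0.093 (SE, adjusted p = 4.44e-07). Its further probe gave -0.16 for E2, not called, and -1.54 for E3, and the mean over both probes gave -0.96 for E2, not called.

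*Adamts6*, a microfibril-associated protease needed for heart development, read -1.55, -1.64, and -1.63 with saline, -2.64, -3.33, and -2.89 at 2 hr of E2, and -2.80, -2.87, and -3.27 at 2 hr of E3. At 24 hr it read -2.69, -2.61, and -2.79 after E2, still below saline, and -1.83, -2.11, and -2.04 after E3. It decreased with a change of -1.34 ± 0.165 (SE, adjusted p = 1.84e-05) and -1.37 ± 0.165 (SE, adjusted p = 2.55e-05) at 2 hr and of -1.09 ± 0.165 (SE, adjusted p = 0.000119) at 24 hr of E2, and at 24 hr of E3 the difference was -0.39, not called. *Adamts10*, the related gene mutated in Weill-Marchesani syndrome, decreased at 24 hr of E2 with a change of -1 ± 0.127 (SE, adjusted p = 3.02e-05), with -0.27 after E3. That decrease fell below 2-fold without saline array 3 (-0.91) or E2 24-hr array 2 (-0.96), and its 2 further probes gave -0.90 and -0.91, not called, although 1 of them was called at 2 hr (-1.81 for E2 and -1.61 for E3). *Adamts19* decreased at 24 hr of E2 with a change of -1.07 ± 0.155 (SE, adjusted p = 8.19e-05) and its 2 further probes were called too (-2.36 and -1.10). After E3 at 24 hr the difference was -0.71, not called, and the further probes gave -1.53, called, and -0.72, not called. The first of these was called at 2 hr too (-3.36 for E2 and -3.16 for E3), and the other probes were not. That first probe was dim, so its sizes are uncertain at both times. Its mean normalized log2 signal was -8.74, where the lowest value well above background on any array was -8.29.

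*Adamts2*, the main procollagen N-proteinase, increased in all 4 comparisons with saline. It read 2.54, 2.41, and 2.56 with saline, 3.74, 3.88, and 3.62 and 3.60, 3.37, and 3.64 at 2 hr of E2 and E3, and 3.88, 3.78, and 3.82 and 3.62, 3.92, and 3.77 at 24 hr of E2 and E3. No treated array overlapped the saline arrays. The increases were 1.24 ± 0.104 (SE, adjusted p = 8.04e-07), 1.03 ± 0.104 (SE, adjusted p = 6.11e-06), 1.32 ± 0.104 (SE, adjusted p = 1.05e-06), and 1.26 ± 0.104 (SE, adjusted p = 2.81e-05). The second was near 2-fold and was not called without saline array 2, E3 2-hr array 1, or E3 2-hr array 3 (0.98 to 1). The gene's 3 further probes were higher in all 4 comparisons with saline, by 0.28 to 4.88, and 1 of the 3 was called at 24 hr of E3, where the mean over all probes gave 0.92, not called. A further probe was lower after E3 than E2 at 24 hr (-1.14, called). Between the times 2 of them were lower at 24 hr, called, with -1.40 and -3.46 for E2 and -1.37 and -3.63 for E3. The other member with this activity, *Adamts3*, was called in none (0.76 at 24 hr of E2, adjusted p = 0.00453).

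Among the MMPs, *Mmp19* and *Mmp17* increased at 2 hr. *Mmp19*, a widely expressed enzyme of basement membranes, read -3.91, -3.76, and -4.01 with saline, -1.72, -1.52, and -1.77 at 2 hr of E2, and -2.14, -2.27, and -2.16 at 2 hr of E3. Its 24-hr values were -2.64, -2.76, and -2.68 after E2 and -3.24, -2.76, and -2.83 after E3. The order of the groups was E2 at 2 hr, E3 at 2 hr, then both 24-hr groups, then saline, and the 24-hr groups touched but did not overlap. The increases were 2.22 ± 0.122 (SE, adjusted p = 3.67e-08), 1.70 ± 0.122 (SE, adjusted p = 4.85e-07), and 1.2 ± 0.122 (SE, adjusted p = 5.98e-06), and after 24 hr of E3 the difference was just under 2-fold (0.95 ± 0.122 SE, adjusted p = 0.000256), so it was not called.

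*Mmp17*, which encodes a metalloproteinase held at the membrane by a GPI anchor, was called in all 4 comparisons. It read 0.14, 0.12, and 0.30 with saline, 1.70, 2.65, and 2.28 and 1.92, 1.65, and 1.69 at 2 hr of E2 and E3, and 1.73, 1.69, and 1.56 and 1.16, 1.71, and 1.21 at 24 hr. All treated arrays were above the saline arrays. The increases were 2.02 ± 0.207 (SE, adjusted p = 4.13e-06), 1.57 ± 0.207 (SE, adjusted p = 5.35e-05), 1.47 ± 0.207 (SE, adjusted p = 6.63e-05), and 1.17 ± 0.207 (SE, adjusted p = 0.00137), and the further probe gave 1.2 to 1.81. The last was no longer called without E3 24-hr array 2 (1).

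Other MMPs decreased at 2 hr. *Mmp15*, a transmembrane MMP, decreased at 2 hr of E2 (-1.02 ± 0.144 SE, adjusted p = 5.76e-05) and differed by -0.80 after E3, and the E2 call was lost without saline array 2 (-1) or E2 2-hr array 1 (-0.83), with normexp (-0.84), with quantile normalization (-0.92), and without scaling (-0.93). *Mmp23* decreased at 2 hr of E2 with a change of -1.09 ± 0.11 (SE, adjusted p = 3.58e-06) and differed by -0.39 after E3. *Mmp28*, or epilysin, which is made by epithelia, decreased after E3 at 2 hr with a change of -1.62 ± 0.168 (SE, adjusted p = 7.65e-06) and differed by -0.62 after E2. With normexp background correction the E3 value was -0.91 and was not called. The summed epithelial signal was also below all saline arrays at 2 hr of both compounds. The transmembrane proteases *Mmp14*, an activator of pro-MMP2, and *Mmp16* were not called in any comparison with saline, nor was *Mmp2* itself, for which all 4 differences lay between -0.27 and 0.07.

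At 24 hr the called differences between the compounds were in *Mmp10* and *Mmp11*, while for stromelysin 1 (*Mmp3*) the difference was 0.12 (adjusted p = 0.879). *Mmp10*, stromelysin 2, read -1.43, -1.61, and -1.33 with saline, -4.09, -4.10, and -4.30 at 24 hr of E2, and -2.13, -2.16, and -2.78 at 24 hr of E3. At 2 hr it read -2.18, -2.62, and -1.93 after E2 and -2.18, -2.29, and -3.01 after E3. The E2 arrays at 24 hr were the lowest of the 15 and did not overlap any other group. E2 decreased it at 24 hr with a change of -2.71 ± 0.24 (SE, adjusted p = 2.23e-06), which is 6.54-fold, while for E3 the difference was -0.90 ± 0.24 (SE, adjusted p = 0.0131) and was not called. Its decrease at 2 hr of E3 (-1.04 ± 0.24 SE, adjusted p = 0.00326) was not called when any of 11 of the 15 arrays was left out (-1.19 to -0.78 over all 15), and it held only when the array left out was E2 2-hr array 2, E2 2-hr array 3, E3 2-hr array 1, or E3 24-hr array 3. At 2 hr of E2 the difference was -0.79.

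*Mmp11*, stromelysin 3, a stromal enzyme activated inside the cell by furin, read 3.34, 3.12, and 3.21 with saline, 1.70, 1.72, and 1.68 at 24 hr of E2, and 2.94, 2.91, and 3.18 at 24 hr of E3. At 2 hr it read 2.42, 1.59, and 1.90 after E2 and 2.06, 1.88, and 1.45 after E3. Both 2-hr groups and the 24-hr E2 arrays lay below all saline arrays, and the 24-hr E3 arrays overlapped them. The changes were -1.26 ± 0.193 (SE, adjusted p = 0.000113) and -1.43 ± 0.193 (SE, adjusted p = 6.31e-05) at 2 hr and -1.52 ± 0.193 (SE, adjusted p = 2.96e-05) at 24 hr of E2. At 24 hr of E3 the difference was -0.22 (95% interval -0.64 to 0.20). The summed stromal signal overlapped the saline arrays at 2 hr of E2 and lay below them at 2 hr of E3, with 1 and 2 of its 6 genes called lower, and its part in the 2-hr decreases was not tested.

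Set directly against each other at 24 hr, E3 was higher than E2 for 2 of the 38 members and lower for 0 (2.77% and 2.07% of all probes). These were *Mmp10* with 1.81 ± 0.24 (SE, adjusted p = 0.000165) and *Mmp11* with 1.31 ± 0.193 (SE, adjusted p = 0.000324), and both calls held in all 30 alternative settings. Of the members not called, *Adamts10* (0.73 ± 0.127 SE, adjusted p = 0.000959), *Timp3* (0.67 ± 0.127 SE, adjusted p = 0.00156), *Adamts7* (0.62 ± 0.093 SE, adjusted p = 0.000362), and *Adamts6* (0.70 ± 0.165 SE, adjusted p = 0.00584) were higher after E3 by less than 2-fold, as was *Adamts5* (0.43, adjusted p = 0.0322). *Adamts1* (-0.61, adjusted p = 0.0365) and *Adamts9* (-0.48, adjusted p = 0.0323) were lower after E3 by less than 2-fold. For the 5 members that increased at 24 hr of E2, the difference between the compounds had 95% intervals of -0.28 to 0.17 for *Adamts2*, -0.75 to 0.15 for *Mmp17*, -0.52 to 0.02 for *Mmp19*, -0.83 to -0.14 for *Adamts9*, and -1.16 to -0.10 for *Timp1*, and those of *Adamts9* and *Timp1* lay below 0.

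**Figure D3:**
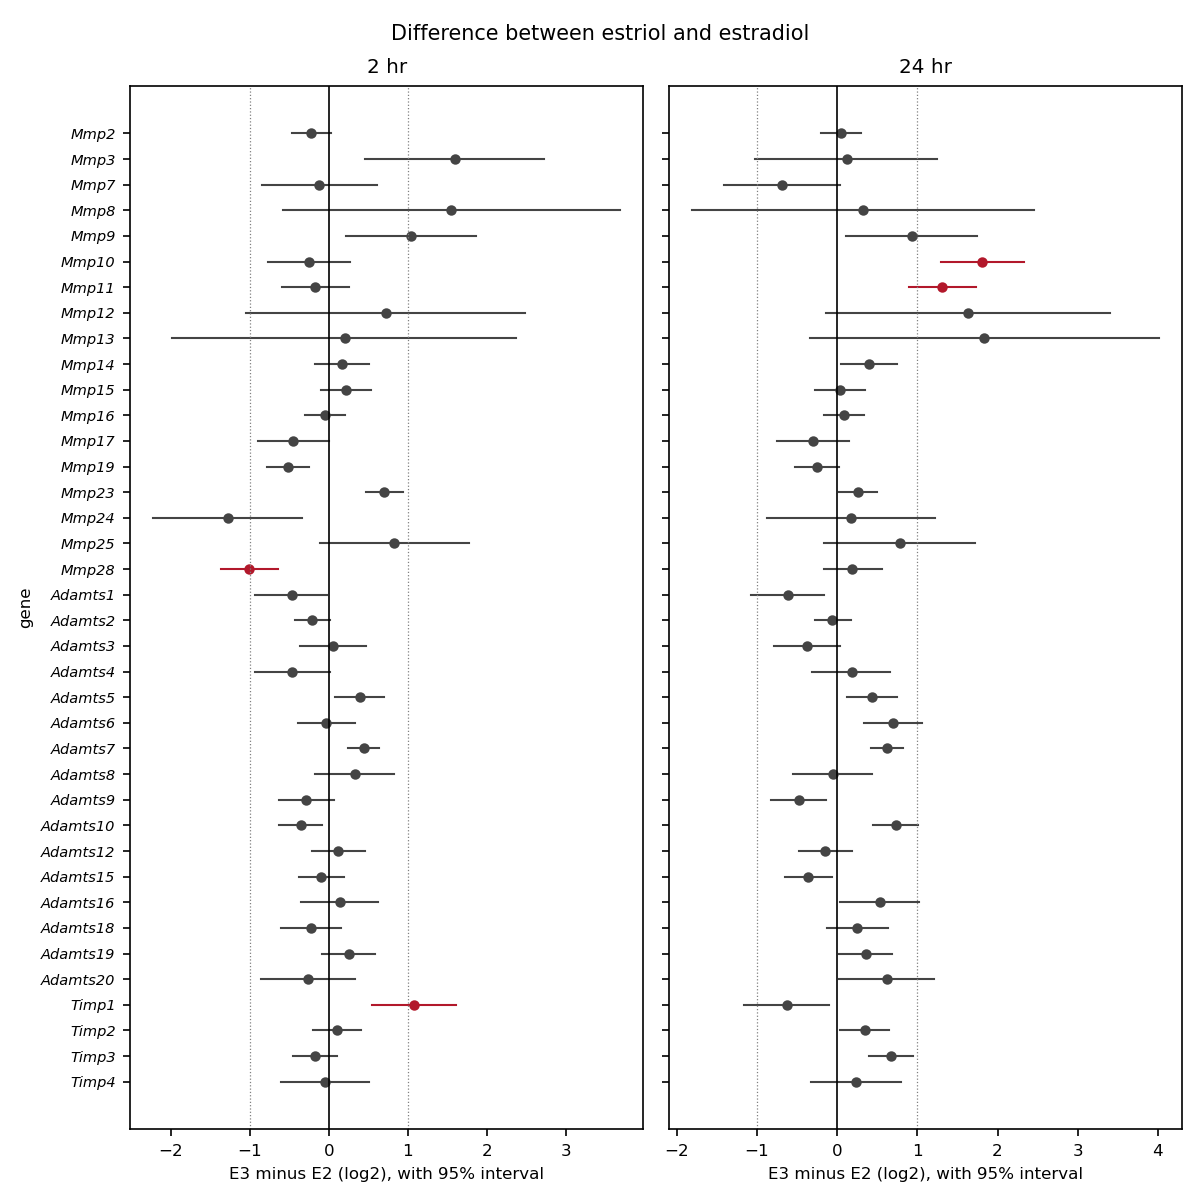
Difference between E3 and E2 (log2, with 95% interval) for the 38 members at 2 hr (left) and 24 hr (right), with called differences in red and dotted lines at 2-fold. *Mmp10* and *Mmp11* are called at 24 hr, and *Mmp28* and *Timp1* at 2 hr.

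At 2 hr, E3 was higher than E2 for 1 member and lower for 1 (1.54% and 5.83% of all probes), in the comparison in which strain, scanner, and compound cannot be told apart. *Mmp28* read -5.19, -5.11, and -5.22 after E2 and -6.45, -6.12, and -5.99 after E3, with -4.49, -4.76, and -4.44 on the saline arrays, so that the E3 arrays lay lowest. Its 24-hr values were -4.83, -4.39, and -4.17 for E2 and -4.23, -4.14, and -4.45 for E3. The difference was -1.01 ± 0.168 (SE, adjusted p = 0.000534), and the call was lost without E2 2-hr array 2 (-0.98) or E3 2-hr array 1 (-0.88). It was also lost with normexp (-0.44), with quantile normalization (-0.94), and with the 75th percentile over probes detected on all arrays (-0.98). *Timp1* was higher after E3 by 1.08 ± 0.244 (SE, adjusted p = 0.0038), a call that ended when any of 12 of the 15 arrays was left out (0.99 to 1.2 over all 15), and it held only when the array left out was saline array 2, saline array 3, or E3 24-hr array 2. Its 2 further probes gave 0.19 and 0.73, not called, and the mean over all probes 0.66, not called. The *Timp1* call also ended with normexp (1.08, adjusted p = 0.0154) and without scaling (0.99). For the strongest 2-hr responders the intervals of the difference were -0.94 to 0.02 for *Adamts4* and -0.93 to -0.02 for *Adamts1*, whose further probe gave the opposite sign (0.47, against -0.47), so no direction is given for it.

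The E3 minus E2 difference itself changed between 2 and 24 hr for 5 members, upward for 4 and downward for 1 (11.1% and 4.39% of all probes). It moved upward for *Mmp10* by 2.06 ± 0.339 (SE, adjusted p = 0.000447), for *Mmp11* by 1.48 ± 0.273 (SE, adjusted p = 0.000931), for *Mmp28* by 1.2 ± 0.237 (SE, adjusted p = 0.00149), and for *Adamts10* by 1.08 ± 0.18 (SE, adjusted p = 0.000473), and downward for *Timp1* (-1.71 ± 0.344 SE, adjusted p = 0.00168). The *Mmp28* call was lost without E3 24-hr array 2 (1.13) and with normexp (1.19, adjusted p = 0.141), the *Adamts10* call without E2 2-hr array 3 (0.97) and with the mean over all its probes (0.50), and the *Timp1* call with the mean over all its probes (-1.31) and without E2 2-hr array 1, E3 2-hr array 1, E3 2-hr array 3, E2 24-hr array 2, E3 24-hr array 1, or E3 24-hr array 3 (-1.85 to -1.62 over all 15).

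Of the 4 inhibitors, *Timp1* and *Timp3* were called against saline and *Timp2* and *Timp4* were not, where 36.5% of all probes were called at least once. *Timp1*, a secreted inhibitor induced in many growing tissues, read -0.57, 0.19, and -1.01 with saline and -0.82, -0.63, and -0.68 and 0.55, 0.12, and 0.43 at 2 hr of E2 and E3. At 24 hr it read 1.57, 1.83, and 1.54 after E2 and 0.86, 1.30, and 0.87 after E3. Both 24-hr groups lay above all saline arrays, and the 2-hr groups overlapped them. The 24-hr increases were 2.11 ± 0.244 (SE, adjusted p = 1.5e-05) for E2 and 1.48 ± 0.244 (SE, adjusted p = 0.000976) for E3, called by its 2 further probes as well (2.17 and 2.24 for E2, 1.51 and 1.60 for E3). At 2 hr the differences were -0.25 and 0.83.

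*Timp3*, the inhibitor bound to the matrix, moved the other way at 24 hr. It read 4.53, 4.23, and 4.56 with saline, 4.96, 5.13, and 5.13 and 4.85, 5.02, and 4.84 at 2 hr of E2 and E3, and 2.99, 3.19, and 3.24 and 3.81, 4.03, and 3.59 at 24 hr. The 2-hr arrays were above the saline arrays and the 24-hr arrays below them. E2 decreased it at 24 hr with a change of -1.30 ± 0.127 (SE, adjusted p = 4.35e-06), while E3 gave -0.63 ± 0.127 (SE, adjusted p = 0.00288), under 2-fold. The 2-hr differences of 0.64 and 0.46 were under 2-fold too.

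*Timp2*, which also takes part in activating pro-MMP2 with MMP14, read 5.42, 5.47, and 5.40 with saline, 5.07, 5.01, and 4.88 and 4.98, 5.15, and 5.14 at 2 hr, and 4.70, 4.95, and 5.01 and 5.24, 5.56, and 4.90 at 24 hr of E2 and E3. Its largest difference from saline was -0.54 ± 0.141 (SE, adjusted p = 0.00536) at 24 hr of E2. *Timp4* read -4.38, -3.64, and -3.98 with saline, -3.75, -4.07, and -4.07 and -4.40, -3.46, and -4.16 at 2 hr, and -4.58, -4.24, and -4.53 and -3.86, -4.25, and -4.55 at 24 hr, with overlap between saline and every treated group. Neither was called in any comparison.

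Between the 2 times, 7 members were higher and 6 lower at 24 hr than at 2 hr of E2 (13.9% and 17.2% of all probes), again across the strain and scanner difference. After E3, where the arrays share strain and scanner but the 2 times share no slide, 5 were higher and 3 lower (9.65% and 6.46%). The 5 include *Adamts20*, which passed the filter only through the 24-hr groups, so its call is a description. Those lower at 24 hr for both were *Adamts4* (-4.99 for E2 and -4.36 for E3), *Adamts1* (-2.70 and -2.84), and *Timp3* (-1.94 and -1.09). The *Timp3* value for E3 was -0.98 without E3 24-hr array 3, which ended that call. *Adamts5* (1.38 and 1.43) and *Adamts7* (1.29 and 1.47) were higher at 24 hr for both. The further *Adamts5* probe gave 0.83 for E2, not called, and 1.35 for E3, called. The further *Adamts7* probe gave -0.61 for E2 and the mean over both probes 0.34, not called.

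Called for E2 and not for E3, *Timp1* (2.36), *Mmp23* (1.27), and *Mmp15* (1.13) were higher at 24 hr than at 2 hr, and *Mmp10* (-1.92), *Adamts16* (-1.39), and *Mmp19* (-1.02) were lower. For E3 the same differences were 0.65, 0.82, 0.94, 0.14, -1, and -0.76, and the test of the difference between the compounds was called for *Timp1* and *Mmp10* and not for the other 4. The *Mmp15* call was lost without E2 2-hr array 1 (0.94), and the *Mmp19* call without E2 2-hr array 2 (-0.95) or E2 24-hr array 2 (-0.99). With normexp the calls of *Mmp15* (0.92), *Adamts16* (-0.91), and *Mmp19* (-0.88) were lost. *Mmp3* (2.26 ± 0.52 SE, adjusted p = 0.00184) and *Mmp7* (1.54 ± 0.335 SE, adjusted p = 0.00124), a matrilysin of epithelia, were also higher, but the calls were lost when any of 12 and any of 8 of the 15 arrays was left out (2.00 to 2.77 and 1.30 to 1.67). With normexp both calls were lost too (2.27 and 1.11), as was that of *Mmp3* with quantile normalization (2.2) and without scaling (2.15). For E3 the differences were 0.78 and 0.98, and the difference between the compounds was called for neither. The *Mmp3* call held only without saline array 2, E2 2-hr array 1, or E3 2-hr array 3, and the *Mmp7* call was lost without E2 2-hr array 1, E2 2-hr array 2, E2 2-hr array 3, E3 2-hr array 2, E2 24-hr array 1, E2 24-hr array 2, E2 24-hr array 3, or E3 24-hr array 1. Called for E3 and not for E2, *Mmp28* (1.91 ± 0.168 SE, adjusted p = 1.79e-06), *Mmp11* (1.21, not called in the E3 groups alone with the replicate number as a block), and *Adamts20* were higher at 24 hr, the last by at least 1.78-fold, a call lost without any of 10 arrays (1.10 to 1.5 as measured), and it held only when the array left out was E2 2-hr array 2, E2 24-hr array 1, E2 24-hr array 2, E2 24-hr array 3, or E3 24-hr array 1. For E2 the differences were 0.71, -0.27, and 0.36, and the difference between the compounds was called for *Mmp28* and *Mmp11* and not for *Adamts20*.

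E3 at 2 hr is the one treated group with a saline array on its own slide. Within that slide only 1 saline array (3) stands for the vehicle, and it is also part of the main comparison, so the values are given as a description. Of the 14 members called for E3 at 2 hr, 12 differed by at least 2-fold there. *Adamts4* gave 5.44, *Adamts1* 2.57, *Mmp19* 1.82, *Mmp17* 1.46, *Adamts5* -1.21, *Adamts7* -1.21, and *Mmp28* -1.75. The other 7, which were not called with slide as a fixed block, gave 1.36 for *Adamts9*, 1.01 for *Adamts8*, 0.97 for *Adamts2*, 0.93 for *Adamts16*, -1.17 for *Mmp10*, -1.35 for *Adamts6*, and -1.42 for *Mmp11*.

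Some calls also ended with other processing. At 2 hr of E3 these were *Adamts16* with normexp (0.67), without scaling, and with the percentile over probes detected on all arrays, *Adamts2* with quantile normalization (0.97) and that percentile (0.99), and *Mmp10* with normexp (-0.94), with quantile normalization (-0.96), without scaling, and without the filter on dim probes. At 24 hr of E2 they were *Adamts10* with normexp (-0.96), quantile normalization (-0.92), and the mean over its probes (-0.94), *Adamts6* with quantile normalization (-0.97), and *Adamts9* with the mean over its probes (0.94). With that mean *Adamts7* at 2 hr of E2 (-0.96), *Adamts8* at 2 hr of E3 (0.62), and *Adamts2* at 24 hr of E3 (0.92) were not called either. *Adamts20* at 24 hr of E3 was not called with normexp.

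By their brightest probes, the members best known from leukocytes were called in no comparison and varied within groups. *Mmp8*, the neutrophil collagenase, read -6.39, -4.39, and -6.88 with saline, -5.78, -7.03, and -9.99 and -6.40, -6.71, and -5.05 at 2 hr of E2 and E3, and -5.65, -6.59, and -7.01 and -6.70, -6.63, and -4.94 at 24 hr, and every group overlapped saline. *Mmp9*, a gelatinase that neutrophils store in granules, read -1.88, -1.21, and -1.63 with saline, -2.34, -3.22, and -2.84 and -2.50, -1.95, and -0.84 at 2 hr, and -2.44, -2.75, and -3.02 and -1.91, -2.12, and -1.37 at 24 hr. Its E2 arrays lay below the saline arrays at both times, and both E3 groups overlapped them. The differences from saline were -1.23 ± 0.377 (SE, adjusted p = 0.013) at 2 hr and -1.16 ± 0.377 (SE, adjusted p = 0.0176) at 24 hr of E2, and neither was called. The further *Mmp9* probe was called at 24 hr of E2 (-1.31) and for E3 minus E2 at 24 hr (1.19, against 0.93 for the brighter probe, not called). The summed signal of 8 neutrophil genes was highest on saline array 2 (8.83 times the 75th percentile), E3 24-hr array 3 (5.67), and E3 2-hr array 3 (4), and its lowest value on any array was 0.56. On the same 3 arrays the sums of 7 macrophage genes (21.4, 48, and 34.6) and of 5 lymphocyte genes (8.07, 6.78, and 15) were also the highest of their groups.

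In all 5 groups, the array with the highest neutrophil sum was also the array with the highest *Mmp8*, *Mmp9*, *Mmp25* (a leukocyte MMP with a GPI anchor), and *Mmp3* signal. No other member did so in all 5 groups, and 6 members did so in 0. The share of all probes that do so was not computed. The macrophage sum was also highest on the same array as the neutrophil sum in all 5 groups. The part of either sum in the members' values was not tested. Without the 3 arrays of highest sum, 60 of the 71 calls remained, and E3 at 24 hr had 2 called members instead of 4 (*Mmp17* and *Adamts20* were lost), though 12 arrays then remained.

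**Figure D4:**
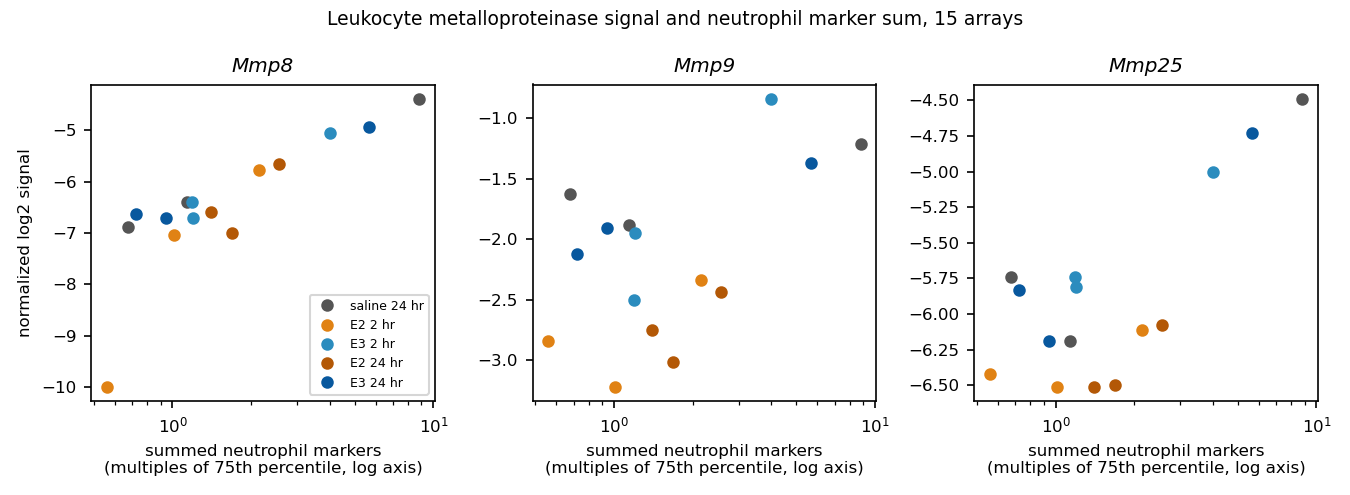
Normalized log2 signal of *Mmp8*, *Mmp9*, and *Mmp25* on each of the 15 arrays against the summed signal of 8 neutrophil genes on that array, in multiples of the array's 75th percentile (log axis), colored by group. The 3 arrays with sums of 4, 5.67, and 8.83 have the highest *Mmp25* and *Mmp8* values.

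*Mmp12*, the macrophage elastase, had a wide spread, with -1.06, -1.85, and -2.86 on the saline arrays and -1.63, -3.75, and -3.55 and -0.59, -3.96, and -2.23 at 2 hr of E2 and E3. At 24 hr it read -3.99, -4.68, and -4.80 after E2, below all other arrays, and -2.07, -3.78, and -2.74 after E3. The difference of -2.57 ± 0.813 (SE, adjusted p = 0.0157) was not called, and neither was that for E3 (-0.94 ± 0.813 SE, adjusted p = 0.401). The summed signal of 7 macrophage genes was 13.5 to 18.8 at 24 hr of E2 and 9.89 to 21.4 on the saline arrays, and 13.8 to 48 at 24 hr of E3. *Mmp13*, the main collagenase of the mouse, was well above background on 1 saline array, on 3 at 24 hr of E3, and on 0 at 24 hr of E2, and no comparison of it was called. Of the 38 members, 15 were called in none of the 8 comparisons between groups, against 52.7% of all tested probes.

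Other genes of pericellular proteolysis were read from 5 lists. The plasminogen system activates several MMPs. *Plau*, urokinase, increased at 2 hr by 3.1 with E2 and 1.5 with E3, and its receptor *Plaur* by 2.74 and 2.51 at 2 hr and by 1.11 at 24 hr of E2. *Plau* was lower after E3 than E2 at 2 hr (-1.60, called). The inhibitor *Serpine2* decreased by 1.08 at 2 hr of E2, and the tissue-type activator *Plat* decreased by 1.21 at 24 hr of E2.

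Plasminogen itself (*Plg*) was well above background on all 3 saline arrays and all 3 arrays of E3 at 2 hr, where it was lower (-1.98, called). It was well above background on 1 array of E2 at 2 hr, 0 of E2 at 24 hr, and 1 of E3 at 24 hr, so no size is given there. Its inhibitor *Serpinf2* was lower at 24 hr (-2.09 and -2.19). *Pzp*, a broad protease inhibitor of plasma, was lower at 24 hr of E2 (-3.02) and was well above background on 0 arrays of E2 at 2 hr and on 1 of E3 at 24 hr. These 3 are known as liver products, and the summed liver signal was 6.18 to 22.9 on the saline arrays, 0.275 to 0.319 and 1.63 to 3.85 at 2 hr of E2 and E3, and 0.368 to 0.472 and 0.408 to 0.679 at 24 hr. The part of liver RNA in these differences was not tested.

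A list of 13 measured genes held regulators of MMPs and ADAMTSs and also *Pcolce* and *Pcolce2*, which enhance procollagen C-proteinases, enzymes of another family. Of the 13, 3 increased and 1 decreased at 24 hr of E2, 1 and 1 at 24 hr of E3, 0 and 2 at 2 hr of E2, and 0 and 0 at 2 hr of E3. Over all probes the shares higher and lower were 6.93% and 11.1% at 24 hr of E2, 1.85% and 1.96% at 24 hr of E3, 10.6% and 10.7% at 2 hr of E2, and 4.68% and 9.11% at 2 hr of E3. *Pcolce* decreased by 1.11 at 2 hr of E2 and increased at 24 hr by 1.52 with E2 and 1.22 with E3, and its relative *Pcolce2* increased by 1.34 at 24 hr of E2 and was lower after E3 than E2 (-1.2, called). *A2m*, the broad protease inhibitor α2-macroglobulin, increased by 2.69 at 24 hr of E2, with 0.91 after E3. *Reck*, *Bsg*, and *Furin* were not called against saline.

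The ADAMTS-like proteins lack the protease domain. Of 7 measured, *Adamtsl2* increased by 4.32 and 4.26 at 2 hr of E2 and E3 and by 1.67 at 24 hr of E2, *Adamtsl1* decreased by 2.40 and 1.47 at 2 hr, and *Adamtsl3* decreased by 1.63 at 24 hr of E2, with 0.09 after E3. The E3 minus E2 difference of *Adamtsl3* at 24 hr was 1.72 and was called.

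A list of 19 measured genes held matrix substrates other than collagens and the hyaluronan synthases *Has1* and *Has2*, which are enzymes and not substrates. Of the 19, 1 increased and 2 decreased at 2 hr of E2, 3 and 1 at 2 hr of E3, 1 and 4 at 24 hr of E2, and 1 and 0 at 24 hr of E3. The shares over all probes were 10.6% and 10.7%, 4.68% and 9.11%, 6.93% and 11.1%, and 1.85% and 1.96% in the same order. *Has1* increased by 6.28 and 5.34 at 2 hr, the only increase of the list after E2 at that time, while *Has2* decreased by 2.49 and 2.21. Versican (*Vcan*, on the array under its older name *Cspg2*), the substrate of ADAMTS1 and ADAMTS4, had differences of -0.27 and -0.89 at 2 hr, not called, and increased by 1.33 at 24 hr of E2. At 24 hr of E2, *Comp* (-1.58), *Thbs1* (-1.48), *Thbs2* (-1.41), and *Fbln1* (-1.31) decreased, and for *Comp* and *Fbln1* E3 was higher than E2 at 24 hr (1.05 and 1.06, called).

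*Hapln1*, which links hyaluronan to proteoglycans, decreased by 1.07 at 2 hr of E2. *Eln* increased by 1.12 at 2 hr of E3, and *Bgn* by 1.17 at 24 hr of E3. *Bcan* was called higher at 2 hr of E3 but was well above background on 1 saline array, so no size is given. Of 6 lysosomal cathepsins, only *Ctsk* was called against saline (36.5% of all probes were called at least once), with an increase of 1.05 at 24 hr of E2 and a difference of 0.96, not called, after E3.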

How the data were processed

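Uterine RNA was measured on 15 one-color Agilent arrays, 3 for each of 5 groups. The authors labeled the RNA with Cy3 and extracted the signals with Agilent Feature Extraction (version 9.5.3.1 in the deposited files). The deposited processed intensity of each of 45018 spots is background subtracted, on a linear scale, and not normalized between arrays; a series-wide table deposited beside the scanner files repeats those intensities, and the scanner files were used. The flags deposited beside each intensity (well above background, outlier) were used as filters.

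Control spots and outlier spots (1893 over the 15 arrays) were left out, spots of 1 probe were averaged, and each array's intensities were divided by their 75th percentile before taking log2. That percentile was 2988.68 to 4411.89, and 78.34 to 82.1% of spots were well above background. Between-array scaling assumes that most probes do not change. Groups were compared with limma 3.58.1 in R 4.3.3 (5 group means, 10 residual degrees of freedom), checked on simulated data. The number of arrays limits the precision. Members called in a comparison are named, and values on every array are given for TIMPs, for members called in at least 2 comparisons with saline, and for *Mmp8*, *Mmp9*, *Mmp12*, and *Mmp28*, which were chosen after their values were seen. All 38 symbols were found in RefSeq, and for 30 the probe's accession was too. Motifs were searched with Python 3.11.15. The members and gene lists were chosen with earlier results of these data known. A gene of the plasminogen list, and the counts over that list, are not reported here. The lists were 5 of proteolysis genes and 14 of cell type and tissue markers, and values from each marker list are given. Alternatives covered background correction, scaling, filter, cutoff, slide, replicate number, probe choice, the arrays of 1 scanner and strain alone, and each array left out.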

Additional observations from a re-analysis of the deposited data

Results flagged for a closer look

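For 5 members the difference between E3 and E2 itself differed between 24 hr and 2 hr (limma, adjusted p over all tested probes, 3 arrays per group). The change in that difference was 2.06 (log2) for *Mmp10* (adjusted p = 0.000447), from -0.25 at 2 hr to 1.81 at 24 hr, and 1.48 for *Mmp11* (adjusted p = 0.000931), from -0.17 to 1.31. For *Mmp28* it was 1.2 (adjusted p = 0.00149), from -1.01 to 0.19, and for *Adamts10* 1.08 (adjusted p = 0.000473), from -0.35 to 0.73. With the mean over all probes of *Adamts10* the change was 0.50 and was not called, and its 2 further probes gave 0.19 and 0.34 at 2 hr. For *Timp1* it was -1.71 (adjusted p = 0.00168), from 1.08 to -0.63. With the mean over all probes of *Timp1* it was -1.31 and was not called, and for *Mmp28* with normexp it was 1.19 (adjusted p = 0.141) and was not called. The median over all tested probes was 0.11. The 2-hr E2 arrays enter every one of these values, and for them strain, slides, scanner, and treatment cannot be told apart.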

How the results depend on the processing

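Over the 9 comparisons 71 changes of members were called, 43 of them under every alternative run, slide as a fixed block and the block within E3 aside, and 0 reversed. With normexp background correction 15 of the 71 were lost, with quantile normalization 8, without scaling 6, with the mean over all probes of a gene 9, and with the 75th percentile over probes detected on all arrays 3. The count of members called between E3 and E2 at 2 hr (2 in the comparison above) was 0 with normexp, 1 with quantile normalization, with the percentile over detected probes, and without scaling, 5 with an adjusted p below 0.05 and 2-fold, and 4 with no minimum change. It ranged from 0 to 1 over the omissions of 1 array that moved it. With normexp the E2 count between the times was 8 instead of 13. With no minimum change, E3 at 24 hr had 8 called members instead of 4, E3 against E2 at 24 hr 5 instead of 2, and E3 between the times 16 instead of 8. With only the 12 arrays of 1 scanner and strain, 37 of the 39 calls that could be tested held. *Mmp10* at 2 hr of E3 (-1.04) and *Adamts20* between the E3 times (1.24) were lost. With slide as a fixed block, which only E3 at 2 hr allows and which rests on 1 saline array, 7 of 14 were called. The slide as a random block lost 0, with an estimated correlation of arrays on 1 slide of -0.0125. That block cannot separate slide from treatment for groups that lie wholly on their own slides, so no conclusion is drawn from it.

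Further alternatives were chosen after seeing the data. Without the 3 arrays of highest neutrophil sums, E3 at 24 hr had 2 called members and the E3 minus E2 change over time 3 instead of 5, with *Mmp11* at 1.22 and *Adamts10* at 0.99. Without the 2 arrays of highest pancreas sums, E3 against E2 at 2 hr had 1 and the change over time 3. Normexp moved the median of all tested probes from -0.01 to 0.32 for E3 at 24 hr, from 0.06 to 0.44 for E3 minus E2 at 24 hr, from 0.12 to 0.50 for E3 between the times, and from 0.11 to 0.48 for the change over time. The cause of these shifts was not tested.

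Over 30 pairs of same-numbered arrays the correlation of deviations was -0.458 to 0.544, and 9 were over 0.1. For the E3 groups at 2 and 24 hr all 3 pairs were over 0.1 (0.114 to 0.544), and for no other 2 groups were they. In these groups alone, with the number as a replicate block (an alternative chosen after seeing the data), 6 of 8 calls between the times held, and *Mmp11* (1.21) and *Adamts20* (1.24) were lost. With the block over all 15 arrays, 69 of 71 calls held, *Mmp10* at 2 hr of E3 (-1.04) and *Mmp3* between the times of E2 (2.26) were lost, and *Mmp12* at 24 hr of E2 (-2.57) was gained, so that 13 members were called for E3 at 2 hr and 12 for E2 at 24 hr. With 3 arrays per group and dim signals for genes such as *Adamts20* and *Mmp13*, smaller differences could not be resolved.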
